A study of Homo sapiens with 6 samples.

Results

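MCF-10A is a non-tumorigenic human breast epithelial line, and its open chromatin was mapped by ATAC-seq, a method that uses the Tn5 transposase to cut and tag accessible DNA. The lines compared carried PIK3CA E545K or PIK3CA H1047R as knock-ins, or wild-type PIK3CA in the parental cells (WT), with 2 samples per genotype and 6 in all. Knock-in lines were maintained without EGF and WT cells with 20 ng/ml EGF, and for 24 h before collection every line was kept in a medium of 1% stripped serum and 0.2 ng/ml EGF, so genotype and maintenance EGF cannot be told apart. All lines also received insulin and hydrocortisone, and the labels do not say how many clones stand behind each knock-in line. The authors' peak caller pooled the samples of a genotype into 1 list, so no value below has a replicate error and sequencing depth is unknown. The lists held 89416 peaks for E545K, 106747 for H1047R and 98910 for WT.

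Described here are the regions that both knock-in lists hold and the WT list lacks. Peaks of the 3 lists that touched or overlapped were merged into 120615 regions, and a region was selected on its called peaks alone, with at least 1 E545K peak, at least 1 H1047R peak and no WT peak. This rule found 5568 regions, 4.62% of all regions. Of the other regions, 5450 held E545K peaks only, 13310 H1047R peaks only, 2571 E545K and WT peaks, 11766 H1047R and WT peaks, 8118 WT peaks only and 73832 peaks of all 3 lists. The regions in both knock-in lists and not in WT are called the joint knock-in regions below. Because the absence of a WT peak defined them, their number and their peak areas describe the selection and are no test of a difference between genotypes.

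PIK3CA encodes the catalytic p110-alpha subunit of phosphoinositide 3-kinase, which makes the membrane lipid PIP3 and so recruits and activates AKT. E545K lies in the helical domain and H1047R in the kinase domain, and both are known to raise the activity of the enzyme. Open regions away from promoters are often enhancers, short stretches where transcription factors such as AP-1, RUNX, GATA, SOX and TEAD bind, and CTCF marks the boundaries of chromatin loops. The labelled cell type was checked on promoter peaks. Of 8 basal and myoepithelial markers, 7 had one in each list. Of 5 luminal markers, 4 did. Of 8 markers of blood, endothelial, stromal and neural cells, CD68 alone had a promoter peak in both knock-in lists, and CD68 and CDH5 had one in WT.

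Sequences of some of the strongest joint knock-in regions, ranked by the smaller of the knock-in areas, are shown first. Each is 200 bases of hg38 (plus strand, 5′ to 3′) round the E545K summit. Capitals mark matches, on either strand, to the motifs of more than 6 letters among the 30 that were searched. The first lies downstream of TSEN15, a subunit gene of the tRNA splicing endonuclease, and holds an NF-kB match and the ETS core ACAGGAAG.
TSEN15 (chr1:184161415-184161614): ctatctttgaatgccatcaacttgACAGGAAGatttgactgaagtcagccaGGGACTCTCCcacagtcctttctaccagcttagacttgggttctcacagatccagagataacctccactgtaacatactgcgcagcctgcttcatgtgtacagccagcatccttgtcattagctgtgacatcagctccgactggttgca
TACR2 (chr10:69375840-69376039, in an intron of HK1): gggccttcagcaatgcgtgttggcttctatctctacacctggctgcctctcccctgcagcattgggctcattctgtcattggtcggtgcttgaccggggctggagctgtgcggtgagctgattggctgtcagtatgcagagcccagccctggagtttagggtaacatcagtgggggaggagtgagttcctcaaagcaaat
SOX9 (chr17:72127131-72127330): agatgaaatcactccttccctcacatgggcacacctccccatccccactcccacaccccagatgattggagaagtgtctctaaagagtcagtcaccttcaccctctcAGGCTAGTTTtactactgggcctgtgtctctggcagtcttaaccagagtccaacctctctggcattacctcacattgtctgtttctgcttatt
DHRS3 (chr1:12563681-12563880): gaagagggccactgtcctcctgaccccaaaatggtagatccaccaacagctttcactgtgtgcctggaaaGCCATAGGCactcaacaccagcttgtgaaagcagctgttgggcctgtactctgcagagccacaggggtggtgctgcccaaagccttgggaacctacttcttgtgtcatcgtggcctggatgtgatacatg
The capitals mark a p53 half-site in the SOX9 window and the TFAP2 motif GCCNNNGGC in the DHRS3 window, and the TACR2 window holds none. None of these 4 windows holds an AP-1, RUNX, GATA or SOX match.

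Of the joint knock-in regions at promoters, these 3 are among those with the largest areas, and their capitals mark the KLF-SP motif GGGNGGGG and, for ARHGAP28, a TFAP2 match that overlaps it.
ZNF300 (chr5:150904879-150905078): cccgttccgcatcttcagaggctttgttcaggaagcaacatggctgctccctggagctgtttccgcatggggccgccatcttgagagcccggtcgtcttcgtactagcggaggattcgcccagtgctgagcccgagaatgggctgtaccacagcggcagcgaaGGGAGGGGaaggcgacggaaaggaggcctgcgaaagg
ARHGAP28 (chr18:6729531-6729730): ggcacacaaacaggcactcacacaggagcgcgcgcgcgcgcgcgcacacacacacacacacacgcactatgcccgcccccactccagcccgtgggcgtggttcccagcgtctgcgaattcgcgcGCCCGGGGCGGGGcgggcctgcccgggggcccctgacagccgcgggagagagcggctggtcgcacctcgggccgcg
PON3 (chr7:95396366-95396565): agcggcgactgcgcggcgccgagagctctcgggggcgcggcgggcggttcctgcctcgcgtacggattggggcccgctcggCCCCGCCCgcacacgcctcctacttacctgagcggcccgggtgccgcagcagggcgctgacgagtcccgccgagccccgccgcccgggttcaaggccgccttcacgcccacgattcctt
All 3 are rich in CG pairs, with 15 in the ZNF300 window, 28 in the ARHGAP28 window and 32 in the PON3 window.

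The windows below, chosen after their values were seen, hold the motifs that were more frequent in the joint knock-in regions than in all regions. They are the strongest regions with a RUNX match (TGTGGTT or its complement AACCACA), a SOX match (AACAATGG) or a GATA match (AGATAAG). Each is named for the nearest start, IFFO2 and TMEM135 for RUNX, CFLAR and TTLL4 for SOX, and VSNL1 for GATA. The TMEM135 start lies 359647 bp away, beyond the 100 kb used for the gene groups below. The KLK6 window carries an AP-1 match (TGACTCA) and a RUNX match close together.
IFFO2 (chr1:18948514-18948713): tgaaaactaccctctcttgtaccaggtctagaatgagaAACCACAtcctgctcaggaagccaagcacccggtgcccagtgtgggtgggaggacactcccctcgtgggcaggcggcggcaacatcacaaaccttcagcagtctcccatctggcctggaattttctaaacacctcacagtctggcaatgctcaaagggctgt
TMEM135 (chr11:87397641-87397840): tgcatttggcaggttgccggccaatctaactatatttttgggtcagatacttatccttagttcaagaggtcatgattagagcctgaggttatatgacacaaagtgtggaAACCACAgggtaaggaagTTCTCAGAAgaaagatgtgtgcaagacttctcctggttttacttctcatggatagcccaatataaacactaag
CFLAR (chr2:201129199-201129398): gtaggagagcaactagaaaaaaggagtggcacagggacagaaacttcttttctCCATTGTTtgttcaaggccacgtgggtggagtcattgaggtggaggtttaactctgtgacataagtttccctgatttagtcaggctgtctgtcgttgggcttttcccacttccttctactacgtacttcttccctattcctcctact
TTLL4 (chr2:218745943-218746142): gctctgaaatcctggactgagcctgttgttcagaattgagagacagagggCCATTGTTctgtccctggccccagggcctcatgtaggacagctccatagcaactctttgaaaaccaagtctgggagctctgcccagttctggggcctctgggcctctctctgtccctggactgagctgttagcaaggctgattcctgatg
VSNL1 (chr2:17583233-17583432): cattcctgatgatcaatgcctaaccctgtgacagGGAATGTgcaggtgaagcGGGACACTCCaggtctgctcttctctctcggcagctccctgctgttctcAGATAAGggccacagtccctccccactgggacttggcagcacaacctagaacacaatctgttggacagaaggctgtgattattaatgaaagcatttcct
KLK6 (chr19:50972980-50973179): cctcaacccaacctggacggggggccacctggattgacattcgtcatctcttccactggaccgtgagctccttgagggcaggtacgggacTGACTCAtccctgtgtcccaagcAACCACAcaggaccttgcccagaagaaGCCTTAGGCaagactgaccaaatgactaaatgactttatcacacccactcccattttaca
The other capitals mark a STAT match in the TMEM135 window, a TEAD match (GGAATGT) and an NF-kB match in the VSNL1 window, and a TFAP2 match in the KLK6 window.

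The joint knock-in regions had a median width of 426 bp, against 506 bp in all regions and 694 bp in the regions of all 3 lists. The other kinds missing from a list had medians of 503 bp (E545K only), 422 bp (E545K and WT), 315 bp (H1047R and WT), 286 bp (H1047R only) and 267 bp (WT only), so the joint knock-in regions were not the narrowest. Peak area, a value of the authors' caller, sums the caller's curve along a peak and has a smallest value of 200. Its median in the joint knock-in regions was 318 in E545K and 369 in H1047R, against 763 in E545K, 963 in H1047R and 900.4 in WT in the regions of all 3 lists. Within each list this placed the median joint knock-in peak at the 22.2 percentile of E545K areas and the 27.4 percentile of H1047R areas. A peak is called strong here when it belongs to the upper 50% of its list by area. Both peaks were strong in 330 of the 5568 regions (5.93%, 95% Wilson interval 5.34 to 6.58; all such intervals cover only counting error), against 54.4% of the regions of all 3 lists. In 4193 regions (75.3%) neither peak was strong. Both areas reached 400 in 1175 regions and 1000 in 69 regions.

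The E545K and H1047R peaks of a region mostly lay on the same bases. A single peak of each knock-in made up 5517 regions (99.1%), and the summits lay within 50 bp of each other in 4624 (83.0%), with a median offset of 12 bp. Their sizes were related only loosely, with a Spearman rank correlation of 0.341 between the areas over the 5568 regions, given as a description, since neighbouring regions share lists and chromatin. H1047R had the larger area in 3384 regions (60.8%), with areas on each list's own scale.

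**Figure D1:**
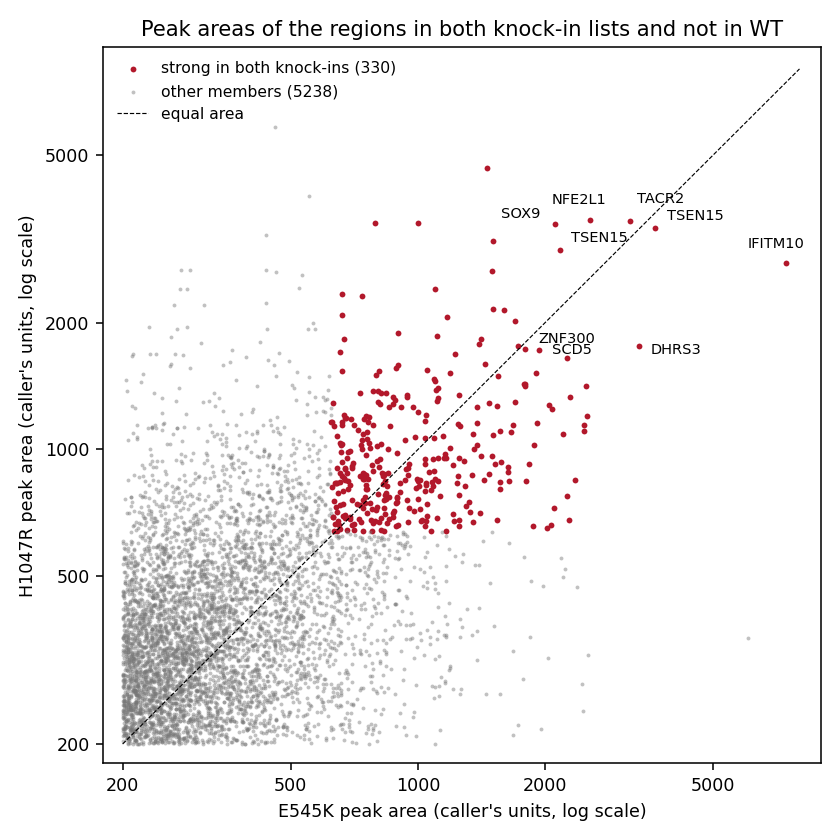
Peak area in E545K (x axis) against peak area in H1047R (y axis) for the 5568 joint knock-in regions, in the caller's units on log scales. Red points are the 330 regions strong in both knock-in lists, grey points the rest, the dashed line marks equal areas, and most of the 10 regions with the largest smaller area carry the name of the nearest gene. Most points crowd near the smallest area of 200.

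Most of these regions stood away from any WT peak. The nearest WT peak lay at a median distance of 5100 bp, with a range of 1 to 851013 bp, and 4630 regions (83.2%, 82.1 to 84.1) had no WT peak within 1 kb. That share was 79.5% of the E545K-only and 84.9% of the H1047R-only regions, which were also chosen for lacking a WT peak. In 473 regions (8.49%) a WT peak lay within 500 bp, and in 6 within 100 bp. Another joint knock-in region lay within 10 kb of 850 regions (15.3%) and within 50 kb of 2093 (37.6%), with no like share taken for other kinds of region.

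The selection has thresholds, and regions stand close to them on both sides. Just inside, a region in an intron of LRBA (chromosome 4, 150962238 to 150962554) had an area of 200.009 in E545K and 459.9 in H1047R. A region in an intron of VGLL3 (chromosome 3, 86960536 to 86960912) had 217.7 in E545K and 200.015 in H1047R. Just outside, a region nearest DLX2 had areas of 516 in E545K and 377 in H1047R and was left out for a WT peak of area 200.084. A region nearest RGPD4 (areas 233 in E545K and 279.8 in H1047R) was kept although a WT peak lay 64 bp from its edge. Absence from the WT list therefore means that no WT peak was called, not that the DNA was closed in WT.

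The largest joint knock-in peaks included those near TSEN15, TACR2, IFITM10, NFE2L1, SOX9, DHRS3, ZNF300 and SCD5, ranked by the smaller of the knock-in areas. The leading region (chromosome 1, 184160112 to 184161888) was intergenic, 109270 bp downstream of the TSEN15 start. Its areas were 3640.0 in E545K and 3357 in H1047R, near the 92.1 and 90.9 percentiles of their lists, and the nearest WT peak was 41637 bp away. A companion region just before it in the genome (184156382 to 184157401) had areas of 2167 in E545K and 2975 in H1047R. The companion's nearest WT peak was 37907 bp away, so both lay in a stretch free of WT peaks.

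The second, in an intron of HK1, the hexokinase gene of the first step of glycolysis, is nearest the start of TACR2, a tachykinin receptor gene. It had areas of 3169 in E545K and 3491 in H1047R (chromosome 10, 69375189 to 69376350). A region in an exon of IFITM10 was 5710 bp wide (chromosome 11, 1731438 to 1737147), with areas of 7439.8 in E545K and 2769 in H1047R. An intronic region of NFE2L1, a transcription factor gene of proteasome control (chromosome 17, 48052781 to 48054938), had 2555 in E545K and 3512 in H1047R, with a WT peak 462 bp away. The region 6319 bp downstream of SOX9, the gene of an epithelial progenitor transcription factor (chromosome 17, 72126401 to 72128276), had 2113 in E545K and 3423 in H1047R. These 4 differ in which knock-in was larger, with E545K ahead at IFITM10 alone.

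Genes of lipid and retinoid enzymes supplied a pair of the remaining strong regions. The region 52684 bp downstream of the start of DHRS3, a retinal reductase gene, was 4654 bp wide (chromosome 1, 12563199 to 12567852) and had areas of 3343 in E545K and 1756 in H1047R. A region in an intron of SCD5, a stearoyl-CoA desaturase gene (chromosome 4, 82706397 to 82707277), had 1930 in E545K and 1725 in H1047R. The SCD5 region was thus of like size in both knock-ins, while the DHRS3 region was larger in E545K. At its summit the DHRS3 region was low, with the caller's −log10 p at 2.85 in E545K and 2.86 in H1047R. The medians over the joint knock-in regions were 3.03 in E545K and 3.24 in H1047R. The SCD5 summit had 6.19 in E545K and 5.90 in H1047R.

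By midpoint, joint knock-in regions lay mostly in introns (46.6%) and between genes (46.7%), against 42.2% and 42.9% of all regions. Promoters, taken as 1 kb either side of a canonical protein-coding transcript start, held 157 of them (2.82%, 2.42 to 3.29), against 9.67% of all regions and 14.5% of the regions of all 3 lists. Low promoter shares were shared by every kind of region missing from at least 1 list, from 1.49% of the WT-only regions to 2.84% of the E545K-only regions. Exons held 3.88% of the joint knock-in regions, against 10.4% of the E545K-only regions and 5.14% of all regions. In 1847 cases (33.2%, 31.9 to 34.4) the nearest protein-coding start was over 100 kb away, against 27.8% of all regions. Some other kinds stood at a like level, with 33.4% of the H1047R-only, 35.2% of the E545K and WT and 36.0% of the WT-only regions. The share was lower in the E545K-only (26.5%) and the H1047R and WT regions (29.6%). By chromosome, the share of regions that belonged to the set ran from 2.59% on chromosome 22 to 5.77% on chromosome 4. On chromosome 5 it was 1.52% below 48 Mb (25 of 1644 regions) and 6.24% above (391 of 6271), while WT-only regions made up 19.0% below and 5.39% above, and the number of DNA copies was not tested.

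**Figure D2:**
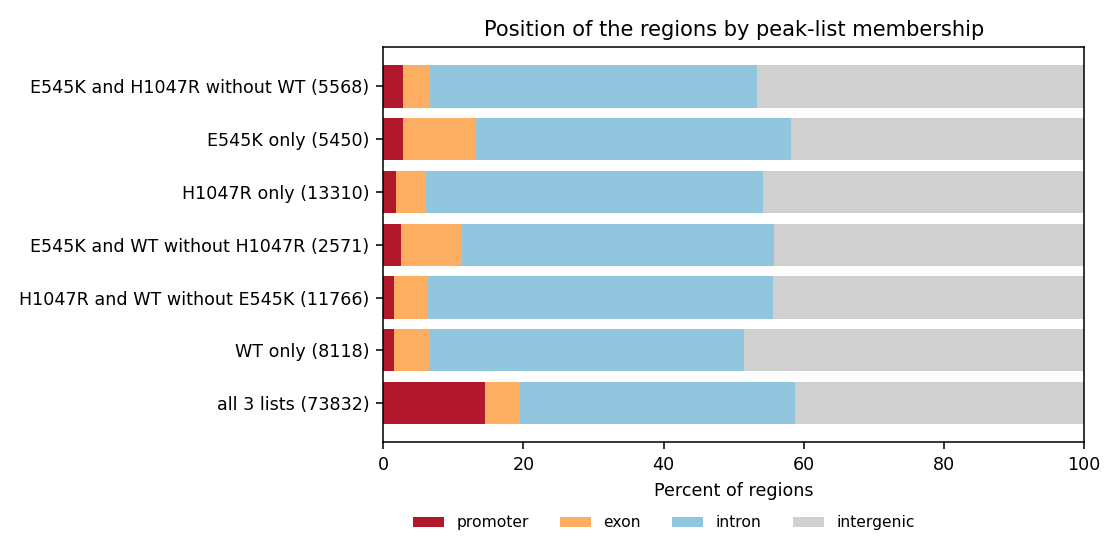
Percent of regions (x axis) at promoters, in exons, in introns and between genes, for each kind of region by peak-list membership, with the number of regions in brackets. The joint knock-in regions (top) have 2.82% at promoters, and the regions of all 3 lists (bottom) 14.5%.

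At promoters, the joint knock-in regions with the largest areas belonged to ZNF300, ARHGAP28, ZNF737, PON3, PDE3B, SLFN13, ADAMTS14, DYNLRB2, SVEP1 and ARHGEF38. The promoter of ZNF300, a KRAB zinc-finger gene (chromosome 5, 150904506 to 150905343), had areas of 1788 in E545K and 1736 in H1047R, and no WT peak within 55890 bp. That of ARHGAP28, a GTPase-activating protein gene (chromosome 18, 6729051 to 6730135), had 1596 in E545K and 2142 in H1047R. That of PON3, a lactonase gene of the paraoxonase family (chromosome 7, 95396090 to 95397167), had 1394 in E545K and 1777 in H1047R. All 3 were among the upper 50% of their lists.

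The other leading promoters spanned varied functions. ZNF737, a zinc-finger gene (chromosome 19, 20565153 to 20566043), had 1410.0 in E545K and 1832 in H1047R, and its nearest WT peak was 209986 bp away. PDE3B encodes a phosphodiesterase, an enzyme that AKT signalling activates to lower cAMP. Its promoter (chromosome 11, 14643549 to 14644569) had 1536 in E545K and 1267 in H1047R. SLFN13, a Schlafen-family ribonuclease gene, had 1099 in E545K and 2406 in H1047R. Across these 10 promoters the smaller area ran down to 870.3, at ARHGEF38, a guanine nucleotide exchange factor gene. As a group, the 157 promoter regions had a median of 9 CG pairs in the 200-base window and 62% GC, against 20 and 69% in promoter regions of all 3 lists, and against 5 and 54.5% in WT-only promoter regions.

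Motif matches were counted in the 200 bases round the summit, on both strands, with exact letters. Joint knock-in regions were centred on the E545K summit, and every other region on the summit of its largest peak. Round the H1047R summit, the ratio to all regions was 1.42 for RUNX, 1.40 for GATA, 1.94 for SOX and 0.886 for AP-1. Round the E545K summit these ratios were 1.46, 1.47, 1.70 and 0.844. Of 30 motifs, the share in the joint knock-in regions had a 95% interval above the share of all regions for 6, below it for 11 and around it for 13. RUNX, the binding site of the RUNX transcription factors, occurred in 508 joint knock-in regions (9.12%, 8.40 to 9.91), against 6.27% of all regions. This was the highest share of the 7 kinds of region, the next being 7.30% (6.64 to 8.02) of the E545K-only regions, and WT-only regions had 5.69%. Among the 330 strong regions it was 11.5% (8.51 to 15.4). It also exceeded that of all regions when regions were split by GC content into 3 classes of like size, with 11.4% against 8.47% in the lowest class, 9.19% against 7.01% in the middle one and 6.22% against 3.47% in the highest.

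The SOX motif occurred in 70 joint knock-in regions (1.26%, 1.00 to 1.59), against 0.740% of all regions. Of the 330 strong ones 6 held it (1.82%, 0.836 to 3.91), an interval that includes 1.26%. The GATA motif occurred in 175 (3.14%, 2.72 to 3.63), against 2.13% of all regions. GATA shares were of like size in the E545K-only regions (3.06%) and in those of E545K and WT (3.19%), so all kinds with an E545K peak and no peak in some other list shared this level. The other motifs whose interval lay above the share of all regions were OCT (ATGCAAAT, 1.38% against 1.10%), GRHL (AACCGGTT, 13 regions, 0.233% against 0.136%) and the retinoic acid receptor repeat described below. OCT and GRHL cleared it narrowly, with lower bounds of 1.11% and 0.137%. With the whole region searched in place of the window, the ratio to all regions was 1.07 for RUNX and 1.15 for SOX, and for GATA it turned to 0.925, below 1. Within 200 bp either side of the summit, with as many bases searched in every region, the ratios were 1.33 for RUNX, 1.49 for SOX and 1.25 for GATA. Joint knock-in regions are narrower than all regions, so whole regions give them fewer bases to search, but the part of width in these ratios was not tested.

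**Figure D3:**
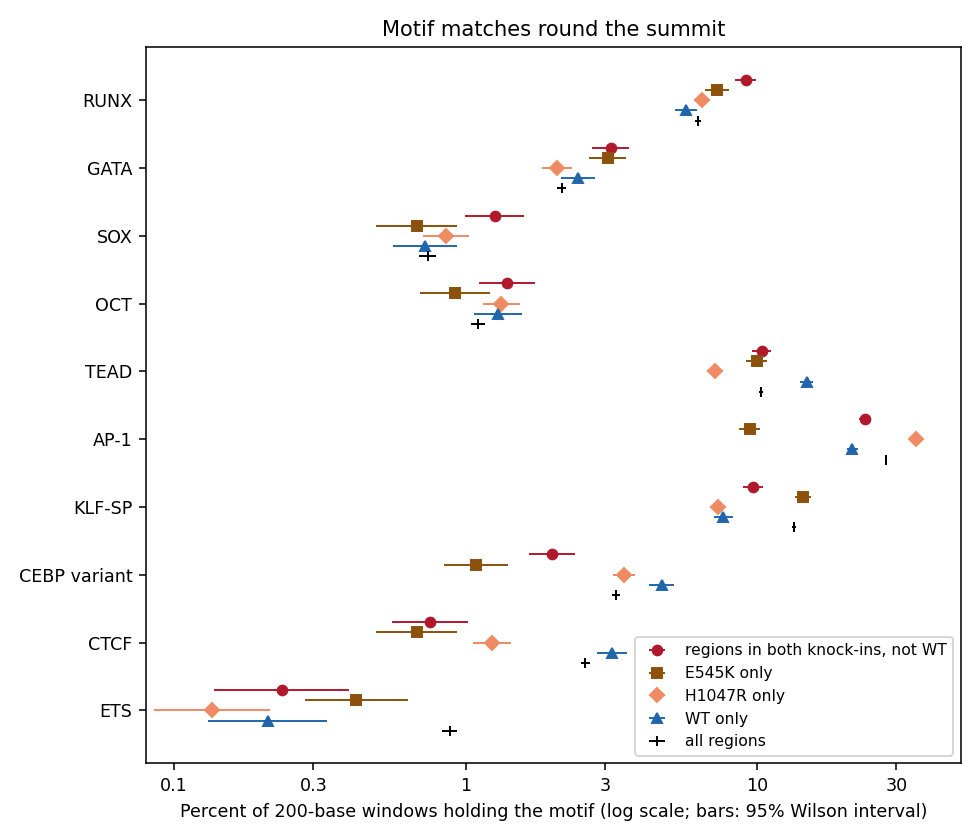
Percent of 200-base windows that hold a motif (x axis, log scale) for 10 motifs, with 95% Wilson intervals as bars. Red circles are the joint knock-in regions, other symbols the E545K-only, H1047R-only and WT-only regions, and black ticks all regions; the red circle stands right of the black tick for RUNX, GATA, SOX and OCT and left of it for AP-1, KLF-SP, the CEBP variant, CTCF and ETS.

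Motifs of the common promoter and loop factors were rarer than in all regions, as in several other kinds of region missing from a list. CTCF, sought by its long consensus, occurred in 42 joint knock-in regions (0.754%, 0.559 to 1.02), against 2.57% of all regions, 0.679% of E545K-only, 1.23% of H1047R-only and 3.18% of WT-only regions. None of the 330 strong regions held it, a count whose Wilson interval reaches 1.15% (3 regions would be 0.909%). The KLF-SP motif occurred in 9.68% against 13.4% of all regions, but its share was lower still in the H1047R-only (7.34%), WT-only (7.65%) and H1047R and WT regions (6.92%). The ETS motif (CCGGAAGT) occurred in 0.233% against 0.882% of all regions, within the 0.135% to 0.422% of the other kinds missing from a list. The CEBP variant (TTGCACAA or TTGCATAA) occurred in 1.98% (1.64 to 2.38), against 3.28% of all regions and 4.69% of WT-only regions. Of the 11 motifs below the share of all regions, the others were AP-1, CRE, p53, NRF2, the palindromic CEBP site, the E-box and SRF.

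AP-1, the site of FOS and JUN proteins, was the most frequent motif in the joint knock-in regions and, in percentage points, differed most between kinds of region. It occurred in 1299 joint knock-in regions (23.3%, 22.2 to 24.5), against 27.6% of all regions. This lay between the 9.41% of the E545K-only regions and the 34.9% of the H1047R-only regions. Among the 330 strong joint knock-in regions it was 9.39% (6.70 to 13.0). Motifs of factors downstream of PI3K and of steroid in the medium stood near the level of all regions, with FOXO (GTAAACAA) in 1.20% against 1.295%, the glucocorticoid receptor element in 0.790% against 0.788%, NF-kB in 2.75% against 3.18% and TEAD in 10.3% in both.

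The direct repeat of 2 AGGTCA half-sites with 5 bases between them, bound by retinoic acid receptors, had an exact match in 12 of all regions, and 3 of these were joint knock-in regions. The 3 sites are shown because genes of retinoid metabolism are described below, with capitals for the half-sites and spacer alike.
RND3 (chr2:150166488-150166504): TGACCTCTGTCTGACCT
LRBA (chr4:150950811-150950827): AGGTCACAGAGAGGTCA
CNP (chr17:41972974-41972990): TGACCTCAGTCTGACCT
The region 321128 bp from the RND3 start had areas of 656 in E545K and 877 in H1047R. That in LRBA had 255 in E545K and 236 in H1047R, and that in CNP 729 in E545K and 269 in H1047R. Of the other 9 matches, 6 lay in regions of all 3 lists, 2 in H1047R-only regions and 1 in an E545K-only region, and no region of another kind held one. No gene of the retinoid list was the nearest gene of these 3 regions.

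For the gene groups, a region went to whichever protein-coding gene started closest to it, up to 100 kb away, which need not be the gene it acts on. On this rule 3721 of 87065 regions were joint knock-in regions (4.27%), and 2854 of 19103 genes had at least 1 (14.9%). Most of those genes had a single one (2238 genes), while 441 had 2, 117 had 3, 45 had 4, 8 had 5 and 5 had 6. Shares were taken for 23 gene lists, of which 13 lay above 4.27%. The interval of 2 lists lay above it, those of retinoid metabolism and keratinocyte differentiation, and that of neural and endothelial markers (1 of 131 regions, 0.763%, 0.135 to 4.20) lay below it.

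**Figure D4:**
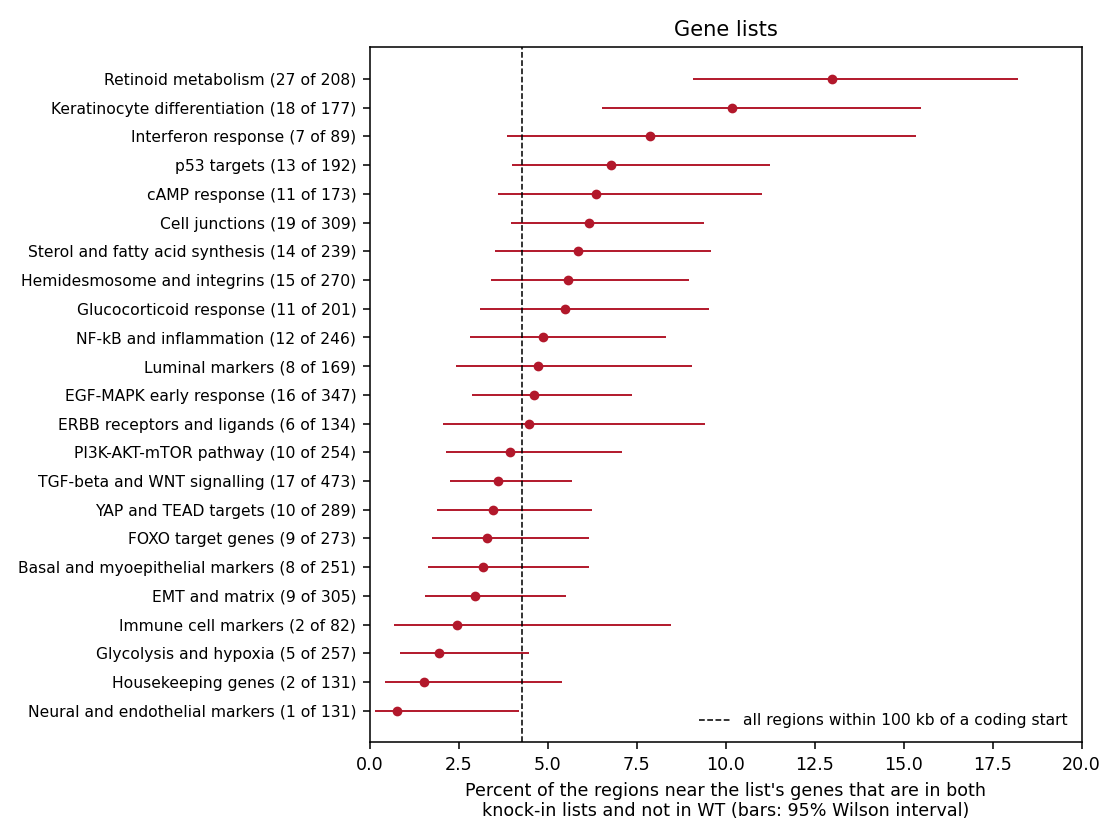
Share of the regions near each list's genes that are joint knock-in regions (x axis, percent; points), with 95% Wilson intervals as bars and the counts beside each name. The dashed line is the 4.27% of all regions within 100 kb of a protein-coding start; only the top 2 lists have intervals to its right, and only the lowest list one to its left.

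Retinoid metabolism turns vitamin A into retinoic acid, a ligand of nuclear receptors that controls epithelial differentiation. Of the 208 regions near its 26 genes, 27 were joint knock-in regions (13.0%, 9.08 to 18.2), and 15 of the 26 genes had at least 1, with a median of 1 per gene against 0 over all genes. A further 29 regions held E545K peaks only and 25 H1047R peaks only, so that 81 regions (38.9%) had a knock-in peak and no WT peak, against 19.1% of all regions within 100 kb of a start. WT-only regions numbered 8 (3.85%), against 5.97%. E545K had the larger area in 18 of the 27 and H1047R in 9. ALDH1A3 and DHRS3 were already known to stand out from earlier results of these data, and without them the share was 12.7% (22 of 173 regions). Among peaks of area 400 or more in all lists, a setting chosen after seeing the data, it was 8.45% (12 of 142 regions, 4.90 to 14.2), against 3.90% of all regions.

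By role, the joint knock-in regions fell along most of the pathway. Of the retinal oxidases, which make retinoic acid, ALDH1A1 and ALDH1A3 had 3 each and ALDH1A2 had 1, at its promoter (areas 207 in E545K and 369 in H1047R). The 3 near ALDH1A3 lay in its introns (chromosome 15, 100881605 to 100900150), with areas of 677, 1136 and 2035 in E545K and 299, 289 and 321 in H1047R. E545K was thus the larger at each of them. At their summits the caller's −log10 p was 2.74 to 3.17 in E545K and 2.12 to 2.37 in H1047R. The medians over the joint knock-in regions were 3.03 and 3.24. A further 3 regions in the ALDH1A3 gene lay nearer the start of LRRK1, so that 6 of the 16 regions within ALDH1A3 were joint knock-in regions. The ALDH1A1 regions had areas of 320.0 to 672 in E545K and 230.3 to 448 in H1047R.

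Among the enzymes that reduce retinal, DHRS3 had the strong region shown above and a second in an intron (areas 723 in E545K and 517 in H1047R). DHRS9, a retinol dehydrogenase gene, had 1, and so did LRAT, whose enzyme stores retinol as esters (587 in E545K and 817 in H1047R). Of the binding protein genes, CRABP2 had 3, and CRABP1 and RBP4 had 1 each. CRABP2 carries retinoic acid to its nuclear receptor, and its 3 regions had areas of 217 to 949 in E545K and 209 to 565 in H1047R. The catabolic genes CYP26A1 and CYP26B1 had 2 each, none above an area of 285 in E545K. Of the receptors, RXRA had 3 and RARB 1, in an intron (chromosome 3, 25396499 to 25397045), with areas of 1118 in E545K and 370.0 in H1047R and the nearest WT peak 26780 bp away. RARRES1, a retinoic acid responsive gene, had 1. Only the first DHRS3 region was strong in both lists, a ranking by area and not by summit.

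Keratinocyte differentiation genes had 18 joint knock-in regions among 177 (10.2%, 6.53 to 15.5), at 14 of 34 genes, and 5 lay at promoters. Of the 18, 9 were at kallikreins, secreted serine proteases that shed cells from stratified epithelia. These genes are neighbours on chromosome 19 and are not independent. Of their 17 regions, 9 were joint knock-in regions and 8 held peaks of all 3 lists, with none of another kind. Without the kallikreins the list had 9 of 160 regions (5.63%, 2.99 to 10.3), an interval that includes 4.27%.

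Within the cluster, the promoters of KLK7, KLK10, KLK11 and KLK13 were joint knock-in regions. KLK10 (chromosome 19, 51018629 to 51020569) had areas of 2060 in E545K and 663 in H1047R, and a smaller region upstream of it had 414 in E545K and 219.9 in H1047R. KLK13 had 292 in E545K and 480.0 in H1047R at its promoter and 472 in E545K and 459 in H1047R upstream, more than 25 kb from any WT peak. KLK11 had 319.7 in E545K and 206 in H1047R. KLK5 had 906 in E545K and 599.0 in H1047R in an exon, and KLK6, whose sequence is shown above, had 625 in E545K and 598 in H1047R. E545K had the larger area in 7 of the 9.

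Outside the kallikreins, S100A9, the gene of a calprotectin subunit, had the largest region of the list in H1047R, with areas of 523 in E545K and 2413 in H1047R. PRDM1, the gene of the repressor BLIMP1, had 2 regions, in one intronic stretch. GRHL3, a grainyhead factor gene of barrier formation, had a promoter region with areas of 289 in E545K and 320.2 in H1047R. KRT10, SPRR1A, CRNN, TGM3 and DSC1 had 1 each. Of these 9 regions, 5 were larger in E545K.

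**Figure D5:**
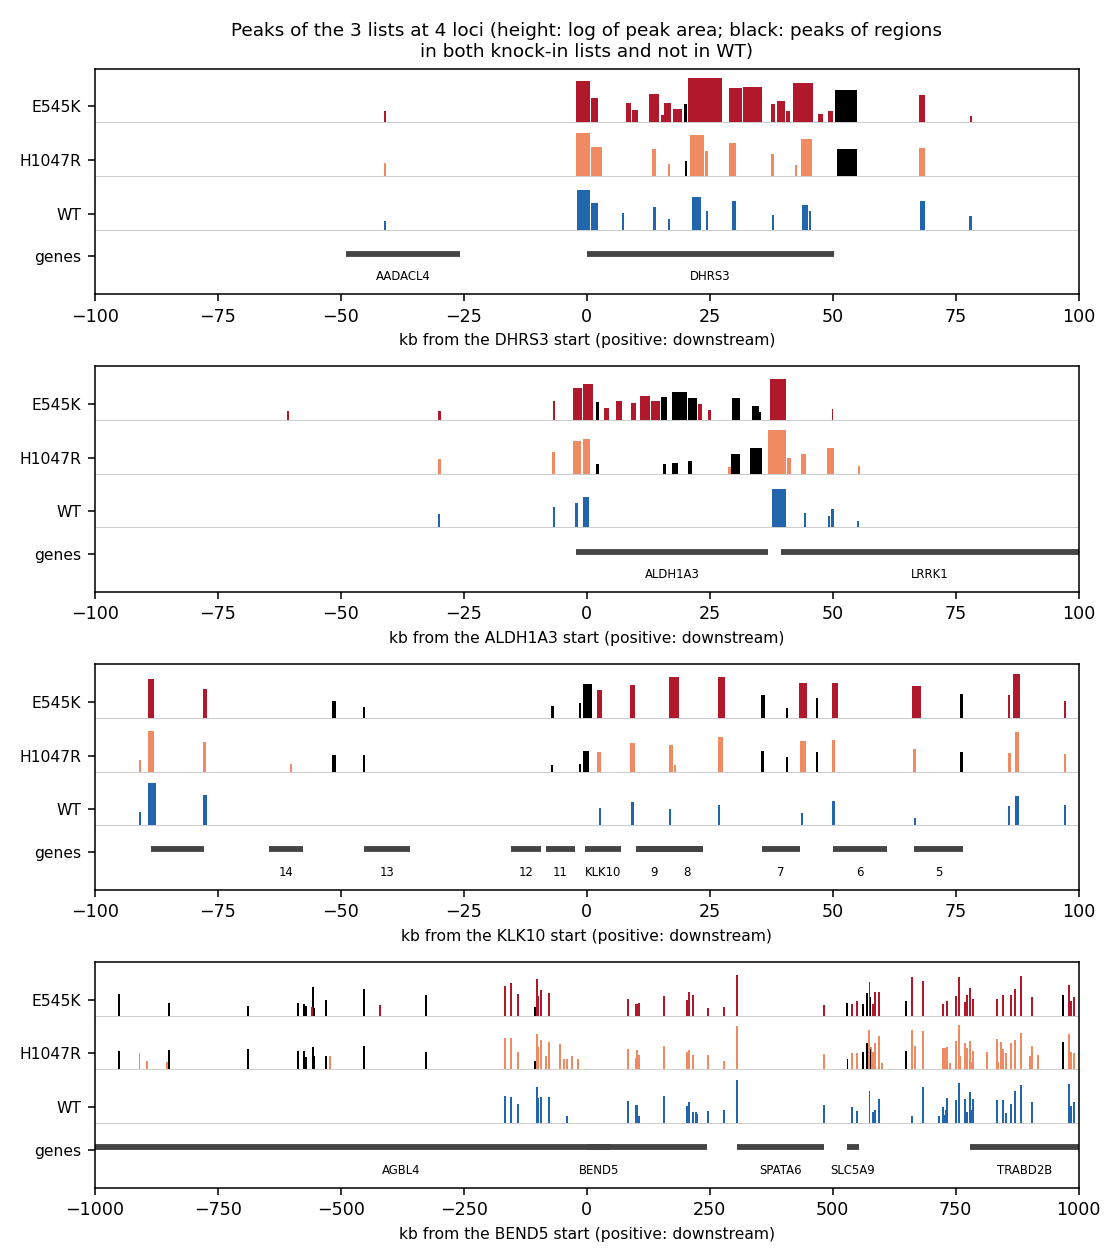
Peaks of E545K, H1047R and WT (rows, top to bottom) against distance in kb from the starts of DHRS3, ALDH1A3, KLK10 and BEND5, with gene bodies below; kallikrein genes carry their number alone. Bar height is the log of the peak area, from the caller's smallest area to the largest peak of the panel, narrow peaks are drawn wider than they are, and black bars are peaks of joint knock-in regions, which have none below them in WT.

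Genes of the PI3K pathway itself were near the background. The PI3K-AKT-mTOR list had 10 of 254 regions (3.94%, 2.15 to 7.09), at 7 of 34 genes. GSK3B, a kinase that AKT inhibits, PIK3CG, the gamma catalytic subunit gene, and SGK1, a kinase related to AKT, had 2 each, and PIK3CB, RHEB, PHLPP2 and EIF4EBP1 had 1 each. PIK3CA itself (chromosome 3, 179148114 to 179240093) had 2 regions, and neither was a joint knock-in region. FOXO target genes, which AKT keeps off by holding FOXO factors in the cytoplasm, had 9 of 273 (3.297%, 1.74 to 6.15). EGF-MAPK early response genes had 16 of 347 (4.61%), led by IER5 with 3 and MYC and DUSP5 with 2 each, and ERBB receptors and ligands 6 of 134 (4.48%). Every one of these intervals includes 4.27%.

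Apart from the retinoid, keratinocyte and neural and endothelial lists, the lists had intervals that include 4.27%. The highest of these were the interferon response (7 of 89, 7.87%, 3.86 to 15.4), with 1 region each at IFI27, IFIT2, IFIT3, MX1, MX2, IRF1 and CXCL10, and p53 targets (13 of 192, 6.77%, 3.999 to 11.2), with BTG2 at 3 and MDM2, TP53INP1 and ZMAT3 at 2. Cell junction genes had 19 of 309 (6.15%), with 3 each at DSP and DSG3, the desmosome genes of desmoplakin and desmoglein 3, and hemidesmosome and integrin genes 15 of 270 (5.56%), with 4 each at ITGA6 and ITGB6. Sterol and fatty acid genes had 14 of 239 (5.86%), spread over 12 genes. The lowest of these were glycolysis and hypoxia (5 of 257, 1.95%), housekeeping genes (2 of 131, 1.53%) and immune cell markers (2 of 82, 2.44%).

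The genes with the most joint knock-in regions came from none of these pathways in particular. PISD, whose enzyme makes phosphatidylethanolamine in mitochondria, SLC5A9, a sodium-coupled sugar transporter gene, TMEM45A, a transmembrane protein gene, SLC9A8, a sodium-proton exchanger gene, and PSD3, an exchange factor gene for the GTPase ARF6, had 6 each. GPRC5D, an orphan receptor gene, VGLL3, a TEAD cofactor gene, C1orf21, RAB44, CSGALNACT1, a chondroitin sulfate enzyme gene, MAP3K13, a MAP kinase kinase kinase gene, and MYO5B, a vesicle motor gene, had 5 each. At TMEM45A these were 6 of 10 regions (chromosome 3, 100518886 to 100538055), with areas of 233 to 1089 in E545K and 318 to 1064 in H1047R, and the other 4 held peaks of all 3 lists. At GPRC5D they were 5 of 13, a further 6 held H1047R peaks only and 2 held peaks of all 3 lists. Its largest had areas of 2504 in E545K and 1416 in H1047R (chromosome 12, 12924025 to 12925689). At MAP3K13 they were 5 of 13 and at PISD 6 of 20.

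Some joint knock-in regions lay together. Among windows of 1 Mb with 20 or more regions the median number was 2. The 5 richest windows, taken whatever their number of regions, held 11 to 13. On chromosome 18, from 63 to 64 Mb, 13 of 100 regions belonged to the set, all nearest to SERPINB genes, a cluster of serpins that inhibit intracellular proteases. SERPINB2 and SERPINB7 had 3 each, SERPINB13 had 2, and SERPINB3, SERPINB5, SERPINB8, SERPINB11 and SERPINB12 had 1 each. Their areas ran from 240.1 to 796 in E545K and from 216 to 1128 in H1047R, and 7 of the 13 held an AP-1 match. On chromosome 17, from 72 to 73 Mb, 12 of 87 belonged to it, of which 11 were nearest to SOX9, spread from 43505 bp upstream to 354302 bp downstream of its start. The largest of these is the SOX9 region shown above. The next had areas of 938 in E545K and 898 in H1047R, 228885 bp downstream.

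On chromosome 1, from 17 to 18 Mb, 12 of 102 regions belonged to the set, with 4 near PADI1, PADI2 and PADI3, genes of peptidylarginine deiminases that citrullinate proteins of the epidermis. The one nearest the PADI2 start had areas of 423 in E545K and 1801 in H1047R. Another region in an intron of PADI2, nearest the SDHB start, had 260 in E545K and 524 in H1047R. On chromosome 2, from 101 to 102 Mb, 12 of 93 belonged to it, with 4 nearest TBC1D8 and 2 nearest IL1R2, the gene of the interleukin-1 decoy receptor, of which the larger had 421 in E545K and 959.5 in H1047R.

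The window from 49 to 50 Mb on chromosome 1 differed from these 4. It held 19 regions, of which 11 were joint knock-in regions (57.9%), 5 held H1047R peaks only, 2 E545K peaks only and 1 peaks of all 3 lists, and no other kind occurred. All 11 lay in introns of AGBL4, a carboxypeptidase gene that shortens glutamate tails, between 49102718 and 49728880, and were nearest to BEND5 (8 regions) or AGBL4 (3 regions). Their areas ran from 219 to 1297 in E545K and from 339 to 823 in H1047R. The nearest WT peaks were 158502 to 505091 bp away, against a median of 5100 bp over all joint knock-in regions. As on chromosome 5, the number of DNA copies in this stretch was not tested. Over the 2325 windows with 15 or more regions, the median share was 4.08%, and the next highest after this window was 33.3%.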

How the data were processed

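ATAC-seq peaks of MCF-10A cells came as 1 deposited list per genotype, in hg38 coordinates. Per the submitters' processing notes, the tools were Trim Galore 0.4.0, cutadapt, FastQC, SAMtools and Genrich 0.6.1, with no aligner named there (not given in the sources used here). That a list pools the 2 samples of its genotype is read from the labels, which name the same list for both. The deposited signal sums the caller's curve along a peak (its area), and the deposited −log10 p is that of its summit. The authors' values were used within each list alone, for description, ranking and filtering. The lists cover the 22 autosomes and give no depth or sample values, so no test across samples was made.

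Peaks that touched or overlapped were merged (Python 3.11.15, pandas 2.3.3). The same merge with bedtools 2.31.1 gave 0 differences in both counts compared, and on simulated data 2000 of 2000 regions with a removed WT peak were found. Gene models were GENCODE release 44, sequence was read with pysam 0.24.0, and intervals were Wilson intervals from scipy 1.17.1. Named were the 10 strongest regions by the smaller knock-in area, the 12 genes with most regions, the 10 strongest promoters, up to 4 genes per list, PIK3CA and the 5 richest windows of 1 Mb. The members, gene lists and motifs were chosen with earlier results of these data known, and patterns seen there, such as those at ALDH1A3, DHRS3 and the kallikreins, are not independent support. A few of these regions and some sequence are left out of the text.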

Additional observations from a re-analysis of the deposited data

How the results depend on the processing

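The number of joint knock-in regions (5568) stayed within 1.5 times when peaks were merged over 200 bp (5243) or 500 bp (4903), when knock-in peaks had to overlap by 50% of both (5018), with lists of equal length (5650) and without WT peaks nearby (5095 and 4630). It was 1175 when the knock-in peaks needed an area of 400 and 3548 when peaks of all lists did, a filter that also drops small WT peaks and so adds regions that had one. The promoter share (2.82%) was 2.12% within 500 bp, 5.19% within 2000 bp, 5.30% with the starts of all coding transcripts and 3.69% at an area of 400 in all lists. The share with no WT peak nearby (83.2% at 1 kb) was 91.5% at 500 bp and 50.4% at 5 kb, by construction. The share strong in both lists (5.93%) was 3.45% by summit and 5.27% with lists of equal length.

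For motifs, the value is the share of the joint knock-in regions over that of all regions, and the 3 classes of like size by GC content were chosen after seeing the data. RUNX (1.46) was 1.33 within 200 bp, 1.07 over whole regions, 1.84 in strong regions, and 1.31 and 1.80 in the middle and highest GC class. GATA (1.47) was 1.25 within 200 bp, 1.23 in the middle GC class and 0.925 over whole regions, where it reversed. SOX (1.70) was 1.15 over whole regions, 2.46 in strong regions (6 of 330 with a match), 1.27 in the lowest and 2.20 in the highest GC class. AP-1 (0.844) was 0.886 round the H1047R summit, 0.751 in the middle GC class and 0.340 in strong regions. CTCF (0.293) was 0 in strong regions. The cause of these shifts was not tested. The retinoid list (13.0%) was 8.45% at an area of 400, and the keratinocyte list (10.2%) 5.63% without kallikreins. All their other settings stayed inside the main intervals, from 10.4% to 12.7% and from 8.37% to 12.03%. Of the 12 genes with most regions, 4 moved by over 1.5 times when starts had to lie within 50 kb and 5 without WT peaks within 1 kb.

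No paired analysis was possible because each list pools the samples of a genotype, and for the same reason leaving out a replicate was not run. Depth is not given by the lists, so a WT peak missed for want of reads cannot be told apart from a closed region.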

Other observations

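Certain gene families recurred among the 154 genes with a joint knock-in region at the promoter, and both were noticed after the values were seen. Symbols starting with ZNF made up 8 of the 154 (5.19%, 95% Wilson interval 2.66 to 9.92), against 2.63% of the 19103 genes. They were ZNF300, ZNF396, ZNF442, ZNF671, ZNF737, ZNF780B, ZNF878 and ZNF93, zinc-finger genes, several of them on chromosome 19. Symbols starting with PCDH made up 4 (2.60%, 1.01 to 6.49), against 0.330%. These were PCDHA12, PCDHA6, PCDHB2 and PCDHGB5, all from the protocadherin clusters of chromosome 5, adhesion genes that lie side by side, so they are not independent.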
